A study of Mus musculus with 32 samples.

Results

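The replication-dependent histone genes were examined in brain tumors of 2 transgenic mouse models. The genes were the protein-coding rows of the count table whose mouse symbol begins with Hist1h, Hist2h, Hist3h or Hist4h, which gave 53 of 37310 genes. Hist1h1a, the given marker of the group, was among them. Of the 53, 6 encode the linker histone H1, 16 H2A, 13 H2B, 6 H3 and 12 H4. The Hist1 cluster on chromosome 13 held 43, the Hist2 cluster on chromosome 3 held 8 and chromosome 11 held 2 Hist3 genes. A further 14 protein-coding symbols of the annotation that meet the same rule had no row and were not analysed here.

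GMYC tumors (6) came from Glt1-tTA/TRE-MYC mice and GTML tumors (8) from mice that carry a MYCN transgene under the same Glt1-driven tetracycline transactivator. Both models are kept on the FVB/N background, and transgene expression is limited to cells in which the Glt1 promoter is active. The methods of the study call these cells hindbrain specific, whereas its discussion places Glt1 expression in the forebrain as well. All samples were frozen tumor biopsies, 1 library each, and no age is given. Whether tumors of a model came from separate animals is not given in the labels, so p-values measure the spread between these biopsies.

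Chromatin is built from nucleosomes, each a core of H2A, H2B, H3 and H4 around which DNA is wrapped, with H1 bound to the linker. Most genes of this kind are transcribed in S phase, when new DNA has to be packaged. Most of their mRNAs end in a conserved stem-loop in place of a poly(A) tail. The stem-loop is bound by SLBP, which is needed for processing, translation and decay of the mRNA at the end of S phase. A biopsy with more cells in S phase therefore holds more of these mRNAs, and medulloblastoma is a tumor of rapidly dividing cells.

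A stem-loop of 16 bases was found after the stop codon in an annotated transcript of 37 of the 53 genes, in 7 forms. These sequences are shown because such an end sets most histone mRNAs apart from polyadenylated ones. One gene stands for each form below, 5′ to 3′ on the mRNA strand, with the stem-loop in capitals.
Hist2h3c2: acaaaGGCTCTTTTCAGAGCCaccacagct
Hist1h4n: ctaaaGGCCCTTTTCAGGGCCatccaatta
Hist1h2bk: ccaaaGGCTCTTTTAAGAGCCactaaacca
Hist2h4: ctaacGGCCCTTTTTAGGGCCaaccacagt
Hist1h4j: ctaaaGGTCCTTTTCAGGACCaccacatct
Hist1h4a: ccaaaGGCCCTTCTCAGGGCCgcccacatt
Hist2h2ac: aaaaaGGCTCTTTTTAGAGCCaccaaatct
The form shown for Hist2h3c2 occurred in 20 genes (3 H1, 8 H2A, 6 H2B and 3 H3), and that shown for Hist1h2bk in 5 (1 H1, 2 H2B and 2 H3). The H4 genes had forms of their own, with that of Hist1h4n in 6 genes, those of Hist2h4 and Hist1h4j in 2 each and that of Hist1h4a in 1. The last form was found in Hist2h2ac alone. Of the 16 genes without a match, 12 have under 60 bases annotated after the stop codon, Hist1h1a and Hist1h1b among them, so that a stem-loop may lie beyond the annotated end (those found began 21 to 58 bases after the stop codon). The other 4 were Hist2h2be, Hist1h2bc, Hist1h2bq and Hist1h2br.

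The tumors held between 4602294 and 7279811 counts each. The models were told apart by their drivers, since Myc lay between 32.7 and 163 CPM (counts scaled to the total of a tumor, in parts per 1000000) in GMYC and between 2.71 and 8.44 CPM in GTML, and Mycn between 7.55 and 33.7 CPM in GMYC and between 121 and 192 CPM in GTML. Otx2, a transcription factor of the medulloblastoma types that these models resemble, was between 231 and 379 CPM in all 14 tumors. Small nucleolar RNAs, which like most histone mRNAs carry no poly(A) tail, took over 0.3% of counts in GMYC tumors 1 to 4 and GTML tumors 1 and 2 (0.366% to 0.438%), and under 0.3% in GMYC tumors 5 and 6 and GTML tumors 3 to 8 (0.151% to 0.272%). According to the methods, most GTML libraries were made for an earlier study and the GMYC libraries for this one, so model and sequencing study largely cannot be told apart. The split by small nucleolar RNA is no label, and how RNA was selected for the libraries is not given in the sources used here. The results are therefore given over all tumors and within each side of the split.

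Summed over the 53 genes, histone counts were 2528 CPM ± 171 (SD, n = 6) in GMYC and 1927 CPM ± 625 (SD, n = 8) in GTML tumors, a difference of -600 CPM. In GMYC tumors 1 to 6 the sums were 2487, 2556, 2710, 2214, 2623 and 2576 CPM. In GTML tumors 1 to 8 they were 3054, 2634, 1407, 2073, 1420, 1335, 1737 and 1759 CPM. In CPM, GTML tumor 1 had the highest sum of all 14 tumors, GTML tumor 2 lay within the GMYC range, and GTML tumors 3 to 8 all lay below the lowest GMYC tumor. In deposited counts, not scaled to the total of a tumor, GTML tumors 1 and 2 had 17270 and 16641 histone counts, within the 16116 to 18572 of the GMYC tumors, and GTML tumors 3 to 8 had 6533 to 11435. GTML tumor 1 was thus highest only after division by its total of 5654532 counts, which was below that of every GMYC tumor. In bulk tissue, fewer cells that express a gene and less RNA per cell cannot be told apart.

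**Figure D1:**
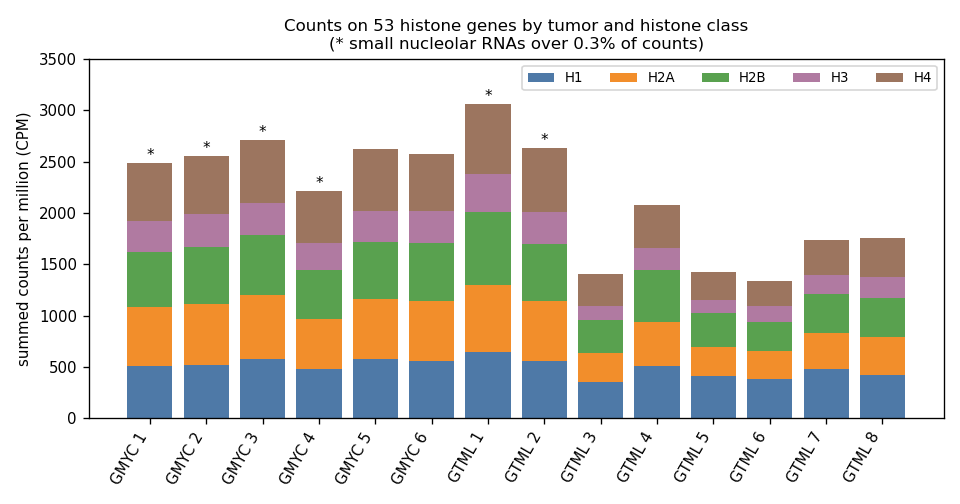
Stacked bars give the summed CPM of the 53 histone genes in each tumor, with 1 color per histone class, and an asterisk marks tumors with small nucleolar RNAs over 0.3% of counts. GTML tumors 1 and 2 reach 3054 and 2634 CPM, whereas GTML tumors 3 to 8 lie between 1335 and 2073 CPM, and every class takes part.

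The class sums differed between the models as follows, with GTML tumor 1 highest in each class. H4 counts summed to 570 CPM ± 37.1 in GMYC and 408 CPM ± 161 in GTML, and H2A counts to 573 CPM ± 47.4 and 402 CPM ± 146. H3 counts summed to 301 CPM ± 19.9 and 213 CPM ± 85.9. The sums of H2B, 547 CPM ± 38.6 and 435 CPM ± 145, and of H1, 536 CPM ± 37.6 and 469 CPM ± 96.2, were closer together (SD, n = 6 and 8 throughout). GTML tumor 4 lay within the GMYC range for H1 (504 CPM) and H2B (508 CPM), whereas GTML tumors 3 to 8 lay below it for H2A, H3 and H4. The ratio of the means, GTML over GMYC, was thus lowest for H2A (0.701) and highest for H1 (0.875). Within the 6 tumors over 0.3% the ratio was above 1 in every class (1.09 to 1.18), and within the 8 tumors under 0.3% it was below 1 in every class (0.561 to 0.751). The mean of the deposited histone counts over all classes, without scaling, was lower in GTML on both sides, at 17413 in GMYC and 16956 in GTML over 0.3%, and at 17442 and 8974 under 0.3%. The mean total was lower in GTML as well, at 7003668 in GMYC and 5985968 in GTML over 0.3%, and at 6714150 and 5503919 under 0.3%.

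Of the 53 genes, 51 passed the filter on low counts and 2, Hist2h2aa2 and Hist2h2ab, were listed at 0 in all 14 tumors, which allows up to 3 counts per tumor by counting error alone. Hist2h2aa2 has the same coding sequence as Hist2h2aa1, which had 25 to 232 counts, so where its reads were counted cannot be told. In edgeR's quasi-likelihood test over all 14 tumors, 2 of the 51 genes were lower in GTML and 0 were higher at an adjusted p under 0.05. Over all 21024 genes tested, 9.71% were called lower and 11.5% higher, so the share of histone genes called was not above that of genes at large. At an unadjusted p under 0.05, 21 of the 51 differed, all lower in GTML, beside 7938 of the 21024 genes in either direction. At stricter thresholds (adjusted p below 0.01, log2 change beyond 1), 0 histone genes were called lower, against 1.10% of all genes. The study used those thresholds with limma-voom, after setting aside an SHH-like GTML tumor that the labels do not name, and that combination was not run here. The fold changes leaned one way, with 47 of 51 below 0 and a median log2 fold change (GTML over GMYC) of -0.43, beside 0.036 over all genes tested.

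The number of genes called depended on single tumors. Without GTML tumor 1, 26 of 50 histone genes were called lower, against 11.3% of all genes, and without GTML tumor 2, 20 of 51 were, against 15.1%. Without GMYC tumor 1, 3, 5 or 6 or GTML tumor 3, 5, 7 or 8 the count was 0, and without GMYC tumor 2 or GTML tumor 4 or 6 it was 1. The count also moved with the tool: limma-voom, the method of the study, called 18 of 51 lower over the 14 tumors (11.4% of all genes) and DESeq2 called 11 (12.1%). No histone gene was called higher in any of these fits.

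The genes called were Hist1h2ae and Hist1h2ag, both encoding H2A. Hist1h2ae ranged from 45.9 through a median of 56.4 to 62.5 CPM in GMYC and from 18.5 through 28.8 to 54.5 CPM in GTML, a log2 fold change of -0.79 (SE 0.248, adjusted p = 0.0341). Hist1h2ag ranged from 37.2 through 48.3 to 51.9 CPM in GMYC and from 19.8 through 27.2 to 51.5 CPM in GTML, a log2 fold change of -0.63 (SE 0.213, adjusted p = 0.0452). In both genes GTML tumors 1 and 2 lay among the GMYC tumors and the other GTML tumors below all of them. In none of the 51 genes were all 8 GTML tumors below the lowest GMYC tumor. The share of all genes for which this holds is not given here, so nothing particular to histone genes can be read from it.

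Both genes are paired head to head with an H2B gene, an arrangement that lets 1 stretch of DNA serve as promoter for both histones of a dimer. The stretch between the annotated starts is shown for these pairs, as the members called lie there (RefSeq, GRCm38.p6, strand of the H2A gene, 5′ to 3′), with motifs on either strand in capitals. The motifs searched were the TATA box, spelled TATAAA, and the octamer, spelled ATTTGCAT. The CCAAT box, named for its letters, was searched as well. The stretches lie at chr13:23571221-23571399, minus strand, for Hist1h2ae and Hist1h2bg, and at chr13:22042950-22043197, minus strand, for Hist1h2ag and Hist1h2bj.
Hist1h2ae: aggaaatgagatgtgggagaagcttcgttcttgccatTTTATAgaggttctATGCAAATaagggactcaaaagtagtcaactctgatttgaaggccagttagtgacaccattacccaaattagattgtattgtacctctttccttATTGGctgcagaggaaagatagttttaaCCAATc
Hist1h2ag: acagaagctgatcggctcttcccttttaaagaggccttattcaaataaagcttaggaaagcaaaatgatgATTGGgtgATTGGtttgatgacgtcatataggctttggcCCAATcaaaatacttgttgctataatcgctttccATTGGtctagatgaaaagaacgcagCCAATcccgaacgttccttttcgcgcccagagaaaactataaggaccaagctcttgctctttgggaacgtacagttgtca
The first stretch holds all 3 motifs, with the TATA box letters on the strand opposite to Hist1h2ae, that of Hist1h2bg. The second holds CCAAT boxes alone. Only these exact spellings were searched, so variants of a motif were not counted.

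Promoter windows of 250 bases before to 50 bases after the start were matched for 49 of the 53 genes. A CCAAT box was in 41 of 49, against 37.9% of all 27025 promoters, and in every matched H1, H2A, H2B and H3 promoter but in 3 of 11 H4 promoters. The letters of a TATA box were in 31 of 49, against 14.2% of all promoters. Motifs were counted on either strand and at any place in the window. Windows of paired genes overlap, so the same match can count for both genes of a pair. The octamer, a binding motif of OCT1, was in 11 of 49 (7 of 16 H2A and 4 of 11 H2B promoters), against 1.75%. The letters AAACACA, known as the H1 box, were in 5 of 6 H1 promoters, all except Hist1h1a, against 7.14%. A match describes the letters and does not show that a factor binds.

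There were 6 pairs of an H2A and an H2B gene whose promoter windows overlap on opposite strands, by 220 to 279 bases. In 5 of the 6 the H2A gene had the lower fold change. The log2 fold changes were -0.79 for Hist1h2ae and -0.29 for Hist1h2bg, -0.63 for Hist1h2ag and -0.26 for Hist1h2bj, and -0.40 for Hist1h2ad and 0.11 for Hist1h2bf. They were closer in Hist1h2an and Hist1h2bp (-0.71 and -0.58) and in Hist1h2ah and Hist1h2bk (-0.61 and -0.52). The sixth pair, Hist1h2aa (0.15) and Hist1h2ba (-1.06), encodes the testis-type H2A and H2B, and Hist1h2aa had 1 to 11 counts per tumor. The differences within pairs were not tested.

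The H1 genes encode the linker histones, of which Hist1h1a to Hist1h1e are the somatic subtypes and Hist1h1t the testis-type one. Hist1h1a ranged from 96.3 through 101 to 112 CPM in GMYC and from 62.5 through 83.3 to 125 CPM in GTML, a log2 fold change of -0.20 (SE 0.15, adjusted p = 0.35). GTML tumors 1, 2 and 4 (125, 114 and 106 CPM) lay in or above the GMYC range and the other 5 below it. The other somatic subtypes, Hist1h1b (-0.30, SE 0.195), Hist1h1c (-0.34, SE 0.15) and Hist1h1d (-0.23, SE 0.13), were not called either. Hist1h1e was nearly level, at 113 CPM ± 7.78 (SD, n = 6) and 116 CPM ± 11.4 (SD, n = 8), a log2 fold change of 0.03 (SE 0.0915, adjusted p = 0.809). Its counts, not scaled to the total, were 718 to 813 in GMYC and 520 to 688 in GTML tumors 3 to 8. Hist1h1e is among the dense genes whose counts may be capped, as described below, and the part of this in its fold change was not tested. Hist1h1t had 1 to 8 counts per tumor, too few for a difference to be detectable.

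The largest fold changes among genes with a mean of at least 50 counts were those of Hist1h4m, Hist1h2ba and Hist1h4n, none of which was called over the 14 tumors. Hist1h4m, an H4 gene, ranged from 19.5 through 26.9 to 30.9 CPM in GMYC and from 4.36 through 7.98 to 28.6 CPM in GTML (log2 fold change -1.16, SE 0.413, adjusted p = 0.0553). Hist1h4n, which has the same coding sequence, ranged from 41.2 through 51.8 to 53.1 CPM and from 8.47 through 16.7 to 54.5 CPM (-1.04, SE 0.395, adjusted p = 0.0703). In both, GTML tumors 3 to 8 lay far under GTML tumors 1 and 2, which were at 28.6 and 24.9 CPM for Hist1h4m. Hist1h2ba ranged from 14.5 through 19 to 23.5 CPM and from 3.37 through 5.79 to 17.9 CPM (-1.06, SE 0.369, adjusted p = 0.0508).

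The 10 genes with the highest level per kilobase of exon were led by Hist1h2ak (141 CPM per kilobase, mean of 14 tumors), Hist1h1a (129), Hist1h2ai (127), Hist1h4k (121) and Hist1h4f (120). Hist1h1b (115), Hist1h4h (113), Hist1h2ab (112), Hist1h2bb (99.8) and Hist1h2bj (95.9) followed. Their log2 fold changes were small, from -0.59 in Hist1h4k and -0.44 in Hist1h4f to -0.14 in Hist1h2bb, with -0.22 in Hist1h2ak, -0.27 in Hist1h4h, -0.32 in Hist1h2ab and -0.35 in Hist1h2ai, and none was called. By class, the median log2 fold change was -0.55 over 12 H4 genes, -0.52 over 14 H2A genes, -0.51 over 6 H3 genes, -0.29 over 13 H2B genes and -0.21 over 6 H1 genes.

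**Figure D2:**
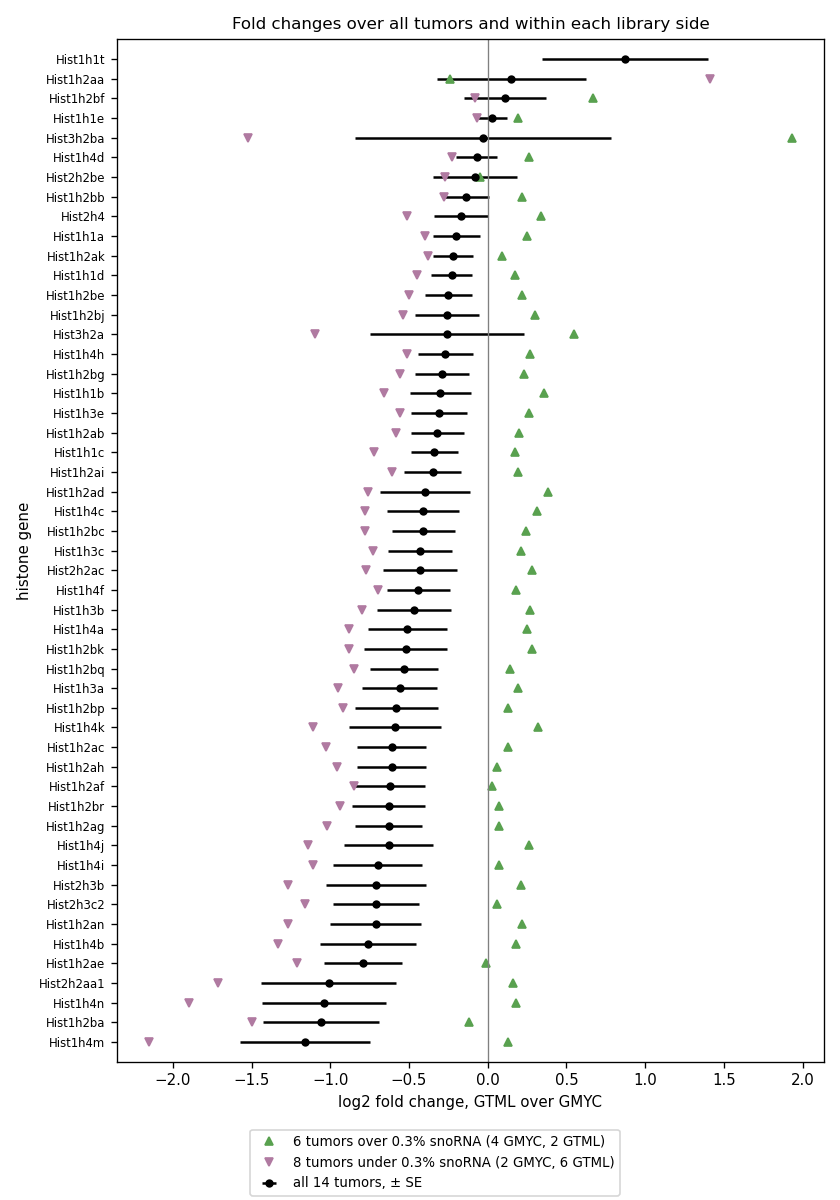
The log2 fold change, GTML over GMYC, of the 51 histone genes tested is shown over all 14 tumors (black, ± SE) and within the tumors on either side of 0.3% small nucleolar RNA (triangles). Median values are -0.43 over all tumors, 0.21 within the 6 tumors over 0.3% and -0.79 within the 8 tumors under 0.3%.

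Within the 6 tumors over 0.3% small nucleolar RNA (4 GMYC and 2 GTML), 46 of 50 histone genes had a fold change above 0 with a median of 0.21, and 0 were called lower or higher. This direction was not seen in the unscaled histone counts of these tumors (16116 to 18299 in GMYC, 17270 and 16641 in GTML). The totals of these GTML tumors were lower, and the part of scaling in the direction was not tested. In the fit within these 6 tumors 0.0106% of all genes were called lower, so it made hardly any call. An unadjusted p under 0.05 was found for 2 of 50 histone genes, beside 2420 of 18921 genes tested. Within the 8 tumors under 0.3% (2 GMYC and 6 GTML), 49 of 50 had a fold change below 0 with a median of -0.79, and 19 were called lower, against 6.69% of all genes. The medians over all genes were 0.008 and 0.051 in these fits. Among the 19 were 7 H2A, 5 H4, 4 H2B, 2 H1 and 1 H3 gene. The log2 fold changes of Hist1h4m (-2.15, SE 0.379), Hist1h4n (-1.90, SE 0.358), Hist1h2ba (-1.50, SE 0.418), Hist1h2ae (-1.21, SE 0.266) and Hist1h2ag (-1.02, SE 0.226) were among those called.

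On this side, 39 of 50 histone genes had CPM values below both GMYC tumors in all 6 GTML tumors, against 17.1% of all genes. The difference between the sides was tested as an interaction of model and side. At an adjusted p under 0.05 it was past the threshold for 0 histone genes and 0 genes in all (smallest adjusted p of a histone gene, 0.189), and at an unadjusted p under 0.05 for 42 histone genes and 15.1% of all genes. As 6 of 8 GTML tumors but 2 of 6 GMYC tumors were under 0.3%, model and library side are largely confounded.

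The deposited counts of these short genes were close to 1 per coding base in many tumors. Counts on untranslated exons are included, so this ratio can exceed 1. Hist1h4k, with 312 coding bases, had 309 to 342 counts in the GMYC tumors, 348 and 328 in GTML tumors 1 and 2, and 67 to 176 in GTML tumors 3 to 8. Hist1h1a, with 642 coding bases, had 672 to 740 counts in GMYC, 708 and 720 in GTML tumors 1 and 2, and 338 to 582 in the others. The GMYC tumors and GTML tumors 1 and 2 differed in total counts but had nearly the same counts for these genes.

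**Figure D3:**
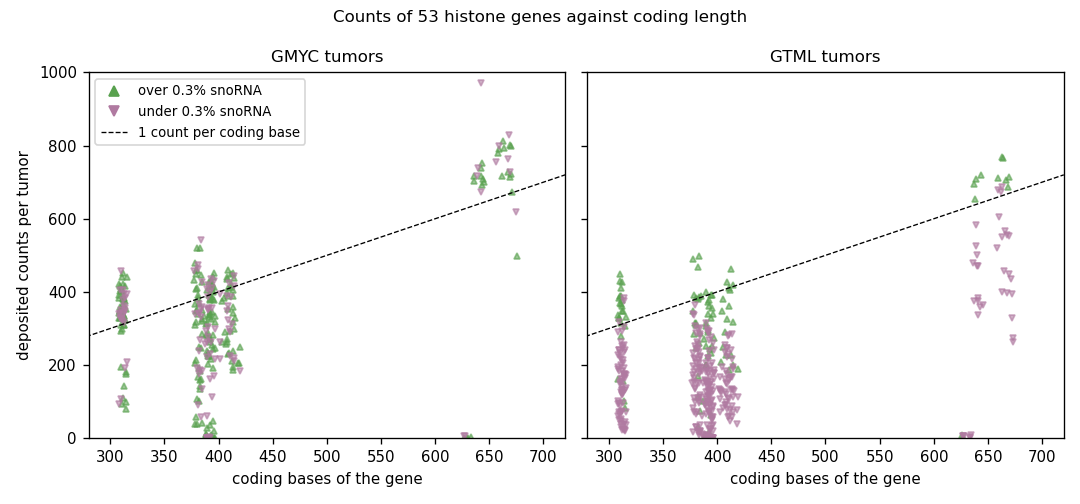
The deposited counts of each histone gene in each tumor are plotted against its coding length, GMYC tumors to the left and GTML tumors to the right, with a dashed line at 1 count per coding base and triangles by library side. In GMYC tumors and GTML tumors 1 and 2 the densest genes lie along or just above the line, and in GTML tumors 3 to 8 most lie under it.

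The median over the 53 genes was 0.850 to 1.002 counts per coding base in the GMYC tumors, 0.894 and 0.865 in GTML tumors 1 and 2, and 0.262 to 0.538 in GTML tumors 3 to 8. Between 16 and 27 of the 53 genes reached 1 count per coding base in each GMYC tumor, 21 and 19 in GTML tumors 1 and 2, and 0 to 2 in each of the others. In GMYC tumors, 8 of 49 histone genes with a mean of at least 50 counts varied less than counting alone would give (a variance below the mean), against 2.42% of 13207 such genes. The median ratio of variance to mean was 2.31 for the histone genes and 13.1 for all genes. In GTML tumors 0 of 47 did, against 0.0312% of 12828 genes, and the median ratios were 38.9 and 23.7. mt-Co1, an abundant mitochondrial gene, had 1428 to 1587 counts in all 14 tumors. The counts thus stopped near the same level in many tumors, and whether duplicate reads were removed is not stated for these counts. If counts are capped at such a level, the CPM values and fold changes of the densest genes do not follow the amount of RNA and the differences are compressed. The part of such a ceiling in the fold changes was not tested.

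**Figure D4:**
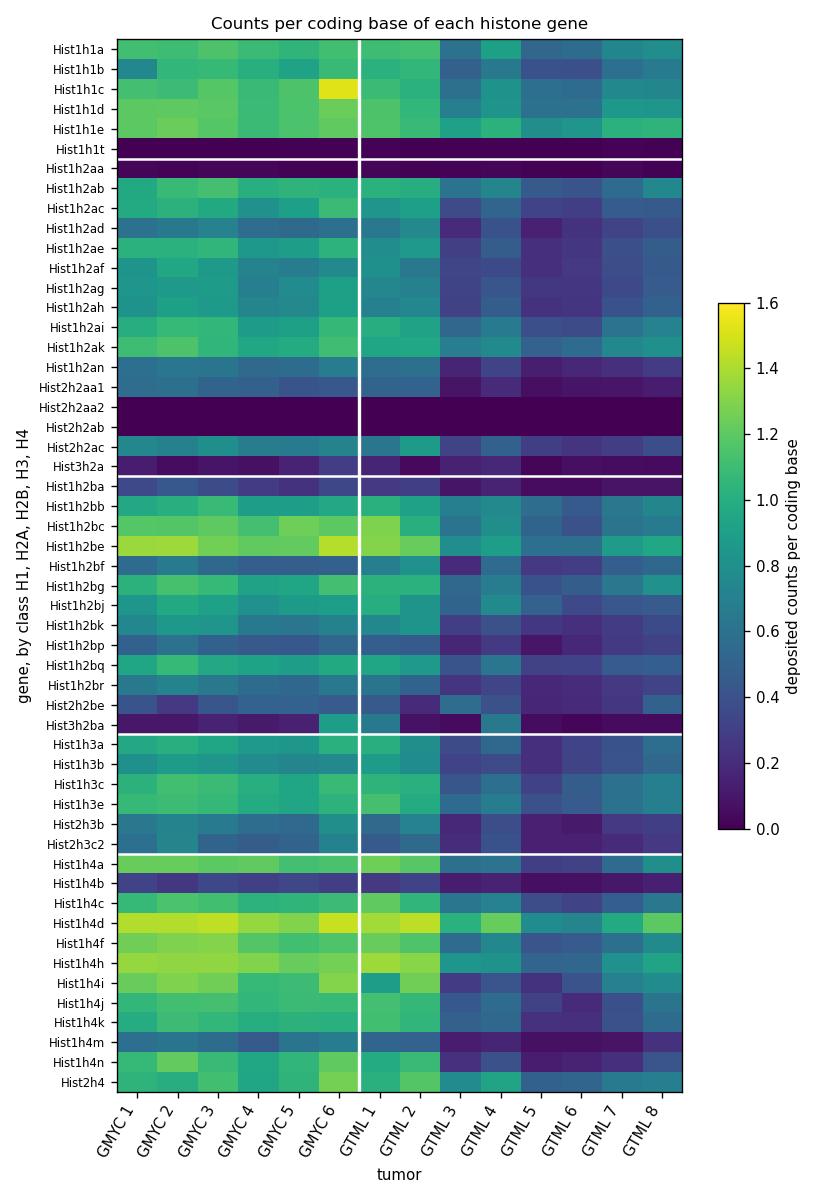
Deposited counts per coding base are shown for each of the 53 histone genes (rows, by class) in each tumor (columns), from dark (0) to yellow (1.6). GMYC tumors 1 to 6 and GTML tumors 1 and 2 look alike, with medians of 0.850 to 1.002, and GTML tumors 3 to 8 are darker in nearly every row, with medians of 0.262 to 0.538.

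Other dense protein-coding genes, chosen by counts per exon base, are given for comparison. The densities of the histone genes above are per coding base, so the sets were not matched in density. The 68 genes outside the group with at least 0.5 counts per exon base had a median log2 fold change of -0.21 over all tumors, where 14 were called lower and 1 higher, a larger share called lower than the 2 of 51 histone genes. Their medians were 0.03 within the tumors over 0.3% and -0.39 within those under 0.3%, where 15 of 68 were called lower. The medians of the histone genes, given above, had the same order, and the difference between the sets was not tested.

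Near-identical copies limit what can be said of a single gene. At least 50% of the 100-base windows of the coding sequence were shared with another annotated transcript in 30 of the 53 genes, and in 7 genes (Hist1h1a, Hist1h1b, Hist1h1t, Hist1h2aa, Hist1h4d, Hist2h4 and Hist2h2be) no window was. All windows were shared in Hist1h2ag and in Hist1h4m, and 62.2% in Hist1h2ae. How reads that fit several copies were counted is not stated for these counts, so the values of such genes are uncertain. Sums over the 53 genes do not depend on how reads were divided among them, but windows are also shared with genes outside the group, such as H2afx, and with histone genes that had no row, so the sums too can depend on how shared reads were assigned or dropped. Hist1h1b, with no window shared, was just past the threshold in edgeR within the tumors under 0.3% (log2 fold change -0.66, SE 0.195, adjusted p = 0.0499). The other genes without a shared window that were tested there were not called. Their log2 fold changes were -0.40 in Hist1h1a, -0.51 in Hist2h4, -0.23 in Hist1h4d, -0.27 in Hist2h2be and 1.41 in Hist1h2aa.

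A few genes departed from the pattern of the group and were singled out after their values had been seen. Hist2h2be, an H2B variant known from olfactory neurons whose long annotated 3′ end holds no stem-loop match, ranged from 14.2 through 24.5 to 30.7 CPM in GMYC and from 11.7 through 22.7 to 35.4 CPM in GTML (log2 fold change -0.08, SE 0.265, adjusted p = 0.855). Its highest value was in GTML tumor 3 and its lowest in GTML tumor 2, unlike the order of the summed histone counts. Hist3h2ba was at 43.5 CPM in GTML tumor 1, 44.6 CPM in GTML tumor 4 and 47.2 CPM in GMYC tumor 6, and between 1.78 and 9.17 CPM in the other 11 tumors. Hist3h2a, its neighbor on chromosome 11, was highest in the same 3 tumors, at 11.3, 12.9 and 15.7 CPM, but its annotated exons overlap Trim17, so its counts may hold reads of that gene. Hist1h2bf (0.11, SE 0.259) and Hist1h4d (-0.07, SE 0.129) were nearly level between the models. Hist1h4d had the highest mean counts per coding base in GMYC, 1.4. Its counts, not scaled to the total, were 404 to 457 in GMYC and 228 to 383 in GTML tumors 3 to 8. The part of a ceiling on counts in its fold change was not tested.

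**Figure D5:**
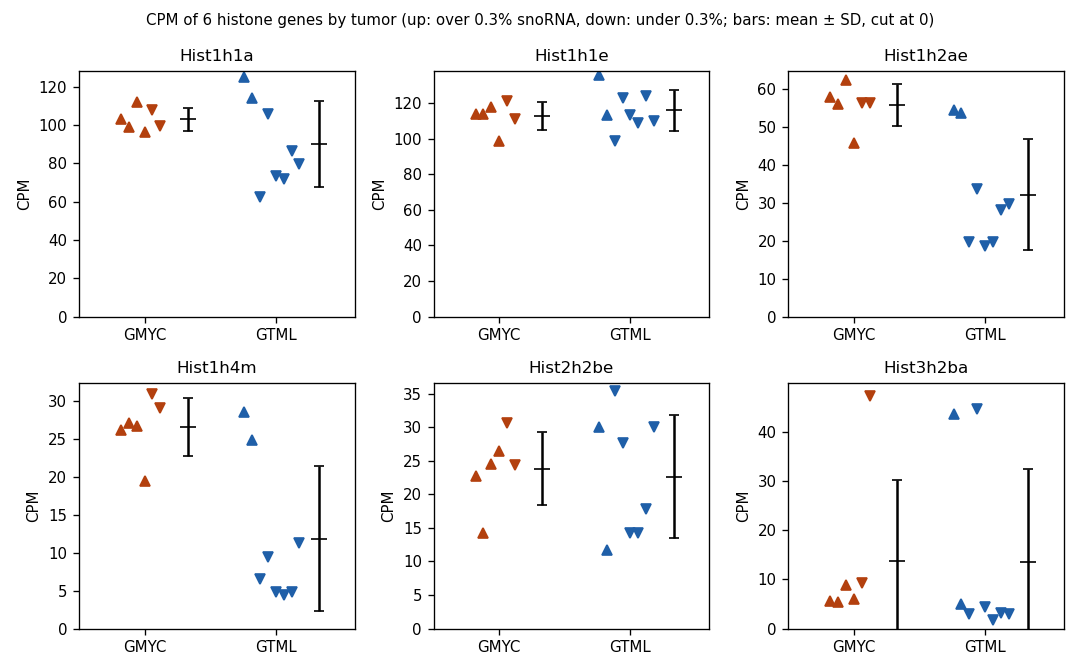
CPM of Hist1h1a, Hist1h1e, Hist1h2ae, Hist1h4m, Hist2h2be and Hist3h2ba is plotted for each tumor by model, with upward triangles for tumors over and downward triangles for tumors under 0.3% small nucleolar RNA, and bars for mean ± SD (n = 6 and 8, cut at 0). Hist1h2ae and Hist1h4m are low in GTML tumors 3 to 8, Hist1h1e is level near 113 and 116 CPM, and Hist3h2ba stands high in 3 tumors at 43.5 to 47.2 CPM.

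Genes whose annotated transcript continues 300 bases or more past the stem-loop, and which could be polyadenylated further downstream, had a median log2 fold change of -0.31 (13 genes tested, from -0.71 to 0.03). Genes whose transcripts all end within 300 bases of the stem-loop had a median of -0.44 (23 tested, from -1.16 to 0.87). These ranges overlapped, and the difference was not tested.

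The replication-independent histone variants are mostly made outside S phase as well, from polyadenylated mRNAs. They were lower in GTML for 6 of 10 genes tested and higher for 0, with a median of -0.41. H2afy, macroH2A, was 216 CPM ± 10.4 in GMYC and 165 CPM ± 19.9 in GTML (log2 fold change -0.39, SE 0.0886, adjusted p = 0.00945). H3f3b, one of the H3.3 genes, fell by 0.37 on the log2 scale (adjusted p = 0.0162), H2afx by 0.64 (adjusted p = 0.0319), H2afz by 0.65 (adjusted p = 0.0328) and H2afv by 0.45 (adjusted p = 0.0397). The sixth was H2afj (-0.63, adjusted p = 0.0464). H2afx shares coding windows with H2A genes of the group, so its counts may not be separate from theirs. The other H3.3 gene, H3f3a, was at -0.09 (adjusted p = 0.683) and Cenpa, the centromeric H3, at -0.43 (adjusted p = 0.121). The median of this list was -0.64 within the tumors under 0.3% and -0.00 within those over 0.3%.

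Of 19 genes tested for transcription and processing of histone mRNA, 1 was lower and 1 higher, with a median of -0.01. Ncbp2, a subunit of the cap-binding complex, was lower (-0.52, adjusted p = 0.00831) and Sympk, symplekin, of the cleavage complex, was higher (0.27, adjusted p = 0.044). Slbp was at 84.3 CPM ± 11.5 and 67.3 CPM ± 11.5 (-0.33, adjusted p = 0.0833), and Npat, the S-phase activator of histone transcription, at 89.9 CPM ± 13.9 and 96.3 CPM ± 9.43 (0.09, adjusted p = 0.554). Of 22 histone chaperones 2 were lower and 0 higher (median -0.08): Nap1l1 (-0.48, adjusted p = 0.00276) and Dnajc9 (-0.43, adjusted p = 0.0244).

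Of 40 S phase genes, 7 were lower in GTML and 0 higher, with a median of -0.20. The 5 with the smallest p were Cdk2, a kinase of S phase entry (-0.64), Rpa3 (-0.79), Gins1 (-0.80), Rfc4 (-0.55) and Rrm1, a subunit of ribonucleotide reductase (-0.40). Of 20 mitosis genes, 7 were lower and 0 higher, with a median of -0.35. Ccnb1, cyclin B1 (-0.77), Kif11, a spindle motor (-0.65), Ttk (-0.63), Ccnb2 (-0.68) and Plk1 (-0.63) led by p. The medians of both lists were farther from 0 within the tumors under 0.3% (-0.31 and -0.59) than within those over 0.3% (-0.09 and -0.14). Of the 4 structural RNAs without a poly(A) tail that were tested (Rmrp, Rpph1, Rn7sk and Terc) 0 were called by edgeR at an adjusted p under 0.05 and 1 at an unadjusted one, Terc (-0.62, adjusted p = 0.128), while the other 3 had log2 fold changes of 0.16 each.

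Markers of other cells that a biopsy can hold are given beside these results, and their part in them was not tested. Microglia markers summed to 246 to 381 CPM in GMYC and 123 to 472 CPM in GTML, and 1 of 10, Cd68, was lower (-0.65, adjusted p = 0.0468). Astrocyte markers summed to 800 to 1453 and 542 to 999 CPM, with 0 of 7 called by edgeR, 2 of 7 at an unadjusted p under 0.05, and a median of -0.72. The largest part of these sums was Slc1a2, the Glt1 gene (mean 700 CPM in GMYC and 588 CPM in GTML). As its promoter drives the transgenes, the sums do not measure astrocytes alone. Oligodendrocyte markers summed to 152 to 346 and 156 to 356 CPM, and Mog was higher (1.56, adjusted p = 0.0104) as 1 of 6. Endothelial markers summed to 61.9 to 173 and 121 to 274 CPM, and Kdr was higher (1.34, adjusted p = 0.035) as 1 of 6. Erythroid genes summed to 34.7 to 100 and 32.3 to 130 CPM. Of 3 tested, Hba-a1 (-2.14, adjusted p = 0.00399) and Hba-a2 (-2.18, adjusted p = 0.0105) were lower. Alas2, with the highest mean CPM of the 3 in both models, leaned the other way and was not called (0.51, adjusted p = 0.276). Of 7 granule neuron genes tested, Barhl1 was higher (1.63, adjusted p = 0.00937) and Neurod1 lower (-0.23, adjusted p = 0.0426), and Gabra6 did not pass the filter. No defining marker was at 0 in every tumor of a model, and of those tested Mobp alone was at 0 in any tumor, a GMYC one.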

How the data were processed

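RNA of 6 GMYC and 8 GTML tumors was sequenced by the authors on an Ion Torrent instrument, aligned to mm9 with STAR and Bowtie2, and counted per gene with featureCounts, and the whole-number counts were deposited without normalization. Most GTML reads came from an earlier study and the GMYC reads from this one. A further 18 columns of counts matched no label and were not used. Symbols, gene types and lengths came from GENCODE M21 by identifier (32620 of 37310 rows), and promoters from RefSeq.

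Counts were compared with edgeR 4.0.16 (TMM, quasi-likelihood test, genes over 1 CPM in at least 3 tumors, Benjamini-Hochberg adjustment over all genes tested). Alternatives included DESeq2 1.42.0 and limma 3.58.1. On simulated counts all 200 changed genes of 20714 were recovered, with 4 false calls. The members and lists were chosen with earlier results of these data known. Members were named if they encode H1, had the 10 highest levels, were called, or had the 3 largest changes. The others were named after their values were seen. Total counts per tumor set the precision of each value.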

Additional observations from a re-analysis of the deposited data

Results flagged for a closer look

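In 5 of 60 groups examined, 1 tumor stood apart from the others of its model by Dixon's criterion, where chance gives about 3. In GMYC tumor 4 the value was low for Hist1h2ag (37.2 CPM, next tumor 47.1 CPM), Hist1h2ak (51.8 CPM, next 60.5 CPM), the summed H2A genes (486 CPM, next 576 CPM) and the summed H3 genes (263 CPM, next 299 CPM). GMYC tumor 4 had the highest total count, 7279811. In GMYC tumor 6 Hist3h2ba was high, at 47.2 CPM, with the next GMYC tumor at 9.17 CPM.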

How the results depend on the processing

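The count of 2 histone genes lower in GTML became 11 with DESeq2, 18 with limma-voom, 4 with upper quartile factors, 1 without a filter, 0 with a term for the library split, 0 with the stricter thresholds, 0 within the tumors over 0.3% small nucleolar RNA and 19 within those under 0.3%. With equal library sizes, an alternative chosen after seeing the data, it was 35. That setting leaves differences in total counts uncorrected, and the mean total was lower in GTML on both sides of the split. Its share over all genes is not given here, so the 35 cannot be set against genes at large. Leaving out 1 tumor gave 0 to 26. In no setting run was a histone gene higher. The median log2 fold change ranged from -0.58 to -0.36 with 1 tumor left out and reversed to 0.21 within the tumors over 0.3%, as did the difference in summed counts, from -600 to 353 CPM (-761 to -516 CPM with 1 tumor left out). Hist1h2ae was past the threshold in 15 of 26 alternatives (adjusted p 0.00792 to 0.985) and Hist1h2ag in 11 of 26 (0.0115 to 0.911). The cause was not tested.

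Within the tumors over 0.3% the log2 fold changes of Hist1h1a (0.25), Hist1h1b (0.36), Hist1h1c (0.17), Hist1h1d (0.17), Hist1h2ab (0.20), Hist1h2ag (0.07), Hist1h2ai (0.19), Hist1h2ak (0.09), Hist1h2bb (0.22), Hist1h2bj (0.30), Hist1h4d (0.26), Hist1h4f (0.18), Hist1h4h (0.27), Hist1h4k (0.32), Hist1h4m (0.13), Hist1h4n (0.18), Hist3h2a (0.55) and Hist3h2ba (1.93) also reversed. Hist1h1e reversed within the tumors under 0.3% (-0.07) and with equal library sizes (-0.26), and Hist1h2bf in these settings (-0.08 and -0.16). With 1 tumor left out, Hist1h1e ranged from -0.01 to 0.06, Hist1h2bf from -0.01 to 0.24, Hist2h2be from -0.20 to 0.02, Hist3h2a from -0.49 to 0.12 and Hist3h2ba from -0.61 to 0.96.

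The replicate numbers did not pair the tumors: same-numbered deviations correlated between -0.212 and 0.240. With the replicate block 0 histone genes were lower, and Hist1h2bf was at -0.04. Depth limits Hist1h1t and Hist1h2aa, and DESeq2 replaced 2 counts of Hist3h2ba and gave it no adjusted p.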
